A study of Mus musculus with 12 samples.

Results

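Immediate early genes are switched on within a cell by existing regulators, without new protein synthesis, when it receives growth factor, calcium, cytokine or stress signals. In the nervous system their transcripts and proteins are used as readouts of recent neuronal firing, and in injured tissue they are also switched on in glia, vascular cells and immune cells. The mitogen-activated kinase ERK and its partners act on serum response factor and the cyclic AMP response element binding protein CREB at their promoters, and their transcripts are short-lived. The 10 genes described are Fos, Fosb and Junb, which form the dimeric transcription factor AP-1, the zinc finger transcription factors Egr1, Egr2 and Egr3, the orphan nuclear receptor Nr4a1, the synaptic gene Arc, the nuclear protein gene Ier2 and the phosphatase gene Dusp1. They were chosen by symbol, with earlier results from the same libraries in view, among them lower Fos in transplanted than in injured cords. Which measured values guided the choice is not recorded, so calls and counts of members against SCI or non-injured cord are given as a description of these libraries and as support for nothing. All 10 had a row in the count table of 46078 genes, and 10 of 10 passed the filter on low counts that left 16527 genes for testing.

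RNA from mouse spinal cord was sequenced in 12 libraries, 3 in each of 4 groups, to compare donors of mesenchymal stem cells (MSC), a multipotent cell population of stroma, after cord injury. The groups were spinal cord injury followed by syngeneic (genetically matched) MSC, spinal cord injury followed by allogeneic (unmatched) MSC, spinal cord injury alone (SCI), and non-injured cord. The labels give C57BL6/cJ as the host strain of every library and no transgene. No sham operation, vehicle injection, time after injury, age, sex, donor strain or cell dose is stated, so the transplant cannot be told apart from the injection that came with it. Nothing in the labels states that samples of 1 group came from different mice, and p-values therefore measure only the spread between these samples, which may be technical. In bulk tissue, fewer cells of a type and less RNA per cell cannot be told apart.

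Total counts were 15473549 to 24947862 with syngeneic MSC, 8705942 to 21265564 with allogeneic MSC, 16309022 to 17750092 in SCI and 15518403 to 26151928 in non-injured cord. Mitochondrial genes took 5 to 8.8% of counts in 11 libraries and 10.9% in non-injured replicate 3, which also had the lowest level of 6 of the 10 immediate early genes in its group. Levels below are counts scaled to a common library size (CPM, with TMM factors), as mean ± SD with n = 3 in each group. A gene is said to be called when its adjusted p from edgeR's quasi-likelihood test over all 16527 genes lies below 0.05, and "no overlap" means that every library of one group lies above every library of the other.

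The start sites of 6 of the 10 genes were read from the RefSeq promoter table (GRCm38.p6). Egr1 was left out of the search beforehand, and Egr3, Arc and Ier2 had no window of full length there. The sequence just before the 6 start sites is shown because CREB and AP-1 sites of this region are the classical inputs of these genes. Each stretch runs 5′ to 3′ on the strand of its gene, starts 160 bases before the RefSeq start site (for Egr2, with 5 windows in the table, the one nearest the annotated start) and stops at that start, or before an annotated exon that begins ahead of it. For Nr4a1 and Dusp1 the RefSeq start lies inside the span that GENCODE M21 annotates for the gene, so the stretch shown is that of an internal start site. The Fos stretch is chr12:85473730-85473889 (plus strand), the Fosb stretch chr7:19310052-19310205 (minus), the Junb stretch chr8:84978749-84978908 (minus), the Egr2 stretch chr10:67535339-67535474 (plus), the Nr4a1 stretch chr15:101266686-101266845 (plus) and the Dusp1 stretch chr17:26508520-26508632 (minus). Capitals mark matches to TGACG, the core of the cyclic AMP response element that CREB binds, to the Egr motif GCGNGGGCG, and to TATAAA, each read on either strand.
Fos: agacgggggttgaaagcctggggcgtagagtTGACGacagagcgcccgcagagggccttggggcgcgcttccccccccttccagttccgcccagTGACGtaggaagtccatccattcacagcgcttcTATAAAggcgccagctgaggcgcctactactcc
Fosb: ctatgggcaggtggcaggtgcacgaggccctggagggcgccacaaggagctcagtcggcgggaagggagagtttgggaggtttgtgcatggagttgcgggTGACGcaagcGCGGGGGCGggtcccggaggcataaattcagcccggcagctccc
Junb: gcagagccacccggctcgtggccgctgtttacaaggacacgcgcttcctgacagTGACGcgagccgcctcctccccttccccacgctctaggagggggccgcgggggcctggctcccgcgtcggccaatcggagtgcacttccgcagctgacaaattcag
Egr2: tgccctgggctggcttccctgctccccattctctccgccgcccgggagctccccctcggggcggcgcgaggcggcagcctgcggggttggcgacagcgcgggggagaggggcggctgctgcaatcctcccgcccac
Nr4a1: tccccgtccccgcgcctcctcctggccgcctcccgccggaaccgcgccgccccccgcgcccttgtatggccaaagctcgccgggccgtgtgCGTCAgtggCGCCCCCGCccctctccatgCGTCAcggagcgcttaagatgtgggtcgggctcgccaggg
Dusp1: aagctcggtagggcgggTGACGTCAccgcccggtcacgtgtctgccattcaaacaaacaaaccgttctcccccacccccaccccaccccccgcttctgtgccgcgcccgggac
In the 250 bases before the start, TGACG was found in 5 of the 6 genes, all but Egr2, against 17.8% of all 32851 promoters in the table. Fos held it at -129 and at -66 with a TATAAA at -33, where positions count back from the start site. In Dusp1 the motif stood on both strands in overlap, as the palindrome TGACGTCA at -143. Nr4a1 held it 4 times on the opposite strand, of which those at -69 and -40 are in the stretch shown. GCGNGGGCG stood in Fosb and Nr4a1, 2 of the 6, against 4.7% of all promoters. The AP-1 motif TGANTCA was in 0 of the 6 windows, against 6.75% of all promoters, and the serum response element's CArG box was also in 0 of the 6, against 1.47%. With shares this low, 0 of 6 cannot tell these genes from other promoters. Egr1, a gene induced through serum response factor, was not among the 6, so these counts do not cover it. Sites further upstream than 250 bases were not searched. A match is a description of letters in a window and not a bound site.

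The summed level of the 10 genes was highest in SCI. It was 172, 133 and 198 CPM in the 3 syngeneic libraries, 203, 254 and 208 CPM in the allogeneic ones, 358, 371 and 415 CPM in SCI and 203, 208 and 188 CPM in non-injured cord. The 3 SCI libraries thus stood above the 9 others in the sum, in which Fos and Egr1 weigh most. For 5 of the 10 genes (Fos, Junb, Egr1, Nr4a1 and Ier2) all 3 SCI libraries were above all 9 others, a pattern that 0.998% of the 16527 genes showed. The single highest library belonged to SCI for 7 of the 10, while it was an allogeneic library for Egr2 and Egr3 and a non-injured one for Arc.

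**Figure D1:**
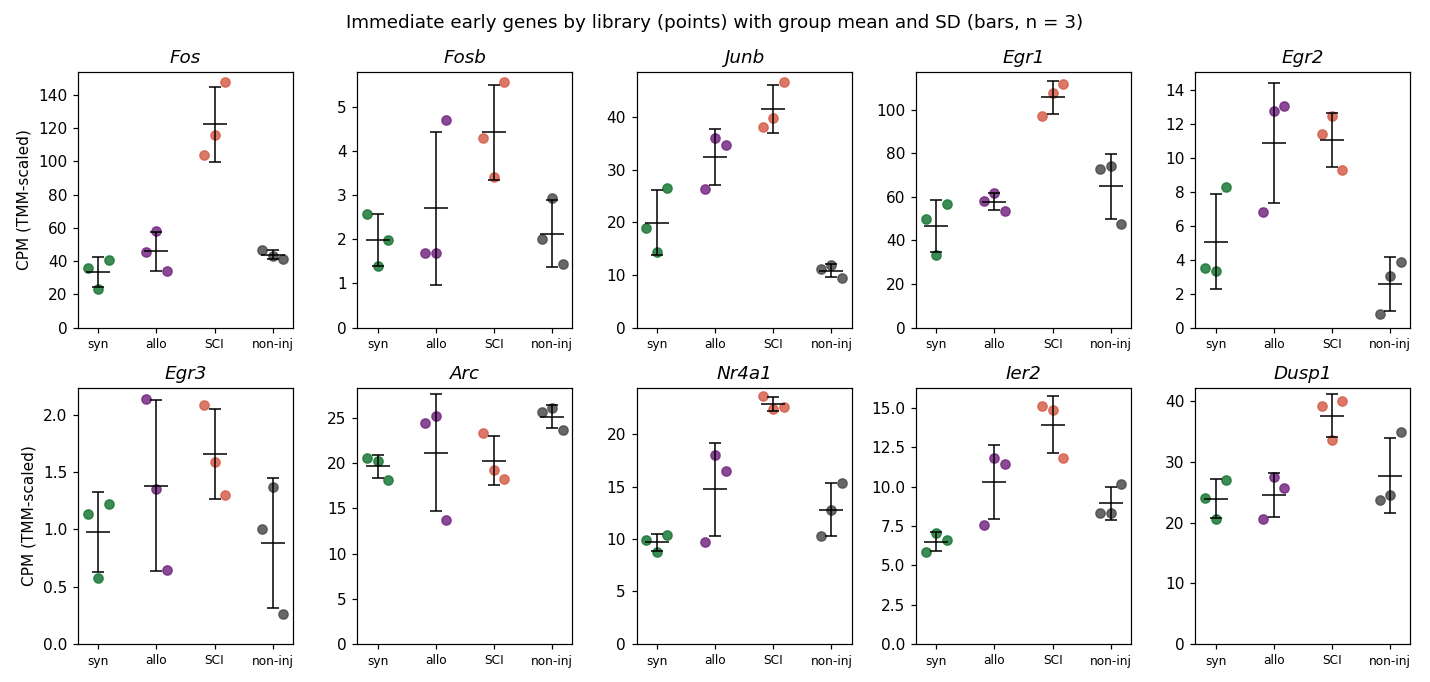
Level of each immediate early gene in CPM (TMM-scaled, linear axis from 0) in every library (points), with the group mean and SD (bars, n = 3); groups from left to right are syngeneic MSC, allogeneic MSC, SCI and non-injured cord. Fos, Junb, Egr1, Nr4a1 and Ier2 have their 3 SCI points above all 9 others, Egr2 is at similar levels in allogeneic and SCI cords, and Arc differs little between the groups.

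Fos, the AP-1 subunit most used to mark recently stimulated cells, showed the clearest separation. Its level was 35.6, 23.4 and 40.9 CPM with syngeneic MSC, 45.3, 58.0 and 34.2 CPM with allogeneic MSC, 104, 116 and 148 CPM in SCI and 46.8, 42.9 and 41.5 CPM in non-injured cord. The syngeneic libraries were all below the non-injured ones, the allogeneic libraries lay on both sides of them, and no library of these 9 reached the lowest SCI library. Means were 33.3 ± 8.98, 45.8 ± 11.9 and 122 ± 22.7 CPM with syngeneic MSC, with allogeneic MSC and in SCI, against 43.7 ± 2.77 CPM in non-injured cord. Per kilobase of exon, SCI cords held 52.0 CPM of Fos, the highest of the 10 genes, against 0.377 CPM per kilobase of Egr3, the lowest. The gene lies at chr12:85473890-85477273 on the plus strand (GRCm38).

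Junb, the Jun family subunit that pairs with Fos proteins, had another profile. It stood at 18.8, 14.3 and 26.6 CPM with syngeneic MSC, 26.3, 36.1 and 34.7 CPM with allogeneic MSC, 38.1, 39.9 and 46.7 CPM in SCI and 11.1, 11.9 and 9.44 CPM in non-injured cord. Here every library of every injured group was above every non-injured library, and the group means descended from SCI through allogeneic and syngeneic MSC to non-injured cord. Its exons share 173 bases with Prdx2 on the opposite strand, and the strand setting of the counting is not given in the sources used here.

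Fosb, a Fos relative with a long-lived splice form in chronically stimulated neurons, was low, with 15 to 102 counts per library. It measured 2.58, 1.39 and 1.99 CPM with syngeneic MSC, 1.69, 1.69 and 4.71 CPM with allogeneic MSC, 4.29, 3.40 and 5.56 CPM in SCI and 2.01, 2.94 and 1.44 CPM in non-injured cord. The SCI libraries were above the syngeneic and non-injured ones, while allogeneic replicate 3 lay within the SCI range.

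Egr1, the most abundant of the 3 Egr genes, is induced by ERK through serum response factor. Its level was 49.8, 33.2 and 56.6 CPM with syngeneic MSC, 58.3, 61.6 and 53.7 CPM with allogeneic MSC, 97.2, 108 and 112 CPM in SCI and 72.9, 74.3 and 47.6 CPM in non-injured cord. Both transplanted groups overlapped with non-injured cord and lay below SCI.

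Egr2, known for its part in Schwann cell myelination and in lymphocytes and macrophages, had another order of group means than Egr1. It stood at 3.54, 3.35 and 8.29 CPM with syngeneic MSC, 6.81, 12.8 and 13.1 CPM with allogeneic MSC, 11.4, 12.5 and 9.30 CPM in SCI and 0.773, 3.06 and 3.85 CPM in non-injured cord. Allogeneic and SCI libraries overlapped, and both groups were above all non-injured libraries. Summed Schwann cell markers were 9435 to 19270 CPM with syngeneic MSC, 10960 to 16720 CPM with allogeneic MSC, 10880 to 15160 CPM in SCI and 13440 to 34740 CPM in non-injured cord, with no marker called between SCI and non-injured cord. Summed monocyte and macrophage markers were 267 to 1373, 876 to 1784 and 939 to 1400 CPM in the 3 injured groups, in that order. In non-injured cord they summed to 34.0 to 44.3 CPM. Within the syngeneic group each monocyte and macrophage marker was highest in replicate 3. The part of these cells in the Egr2 levels was not tested.

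Egr3, which acts in muscle spindles and in lymphocytes, had only 5 to 34 counts per library. Its level was 0.976 ± 0.353, 1.38 ± 0.748 and 1.66 ± 0.394 CPM with syngeneic MSC, with allogeneic MSC and in SCI, against 0.879 ± 0.570 CPM in non-injured cord, and neighbouring groups in this order overlapped.

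Nr4a1, a nuclear receptor induced in neurons, T cells and macrophages, was at 9.88, 8.78 and 10.4 CPM with syngeneic MSC, 9.73, 18.1 and 16.5 CPM with allogeneic MSC, 23.7, 22.4 and 22.6 CPM in SCI and 10.2, 12.8 and 15.3 CPM in non-injured cord. The SCI libraries differed least among themselves (22.9 ± 0.679 CPM), and the allogeneic group was split, with replicate 1 at the syngeneic level. Ier2, a short nuclear protein induced by serum, stood at 5.86, 7.03 and 6.62 CPM with syngeneic MSC, 7.59, 11.9 and 11.4 CPM with allogeneic MSC, 15.1, 14.9 and 11.9 CPM in SCI and 8.35, 8.31 and 10.2 CPM in non-injured cord. The highest allogeneic and the lowest SCI library of Ier2 were almost equal, at 11.9 CPM each.

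Dusp1, the phosphatase that switches off the kinases p38, JNK and ERK, was at 24.1, 20.6 and 27.1 CPM with syngeneic MSC, 20.6, 27.5 and 25.7 CPM with allogeneic MSC, 39.2, 33.7 and 40.1 CPM in SCI and 23.7, 24.6 and 35.0 CPM in non-injured cord. Non-injured replicate 3 lay within the SCI range, and both transplanted groups were below SCI without overlap. Its exons share 11 bases with Ergic1 on the opposite strand.

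Arc, whose protein moves glutamate receptors off the synapse after activity, stood apart from the other 9. It measured 20.5, 20.2 and 18.2 CPM with syngeneic MSC, 24.5, 25.3 and 13.7 CPM with allogeneic MSC, 23.4, 19.2 and 18.3 CPM in SCI and 25.7, 26.1 and 23.7 CPM in non-injured cord. It was the only one of the 10 with its highest mean in non-injured cord, and the 3 injured groups overlapped with one another.

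Within the transplanted groups, the same libraries tended to be lowest or highest over the genes. Syngeneic replicate 2 was the lowest of its group for 8 of the 10 genes and syngeneic replicate 3 the highest for 7, while allogeneic replicate 2 was the highest for 7 and allogeneic replicate 1 the lowest for 6. In SCI the lowest library was replicate 1, 2 and 3 for 3, 3 and 4 genes and the highest for 4, 1 and 5, and in non-injured cord replicate 3 was the lowest for 6 and the highest for 4.

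In SCI against non-injured cord, 6 of 10 genes were called higher and none lower, where 16.6% of all genes tested were called higher and 9.26% lower. Egr2 rose by 2.14 on the log2 scale (SE 0.51, adjusted p 0.0108) and Junb by 1.94 (SE 0.21, adjusted p 0.000173). Fos rose by 1.48 (SE 0.23, adjusted p 0.000948), which is 2.80-fold. Smaller rises were called for Nr4a1 (0.84, SE 0.21), Egr1 (0.70, SE 0.20) and Ier2 (0.64, SE 0.18), each with higher levels in 3 of 3 SCI libraries. Fosb (1.06, SE 0.42, adjusted p 0.0824), Egr3 (0.92, SE 0.54), Dusp1 (0.44, SE 0.17, adjusted p 0.0765) and Arc (-0.31, SE 0.19) were not called. Without overlap, 7 of the 10 were higher and Arc was lower in SCI, where 26.3% and 21.2% of all genes were. The median log2 fold change of the 10 genes was 0.88, and that of all genes tested 0.0082. The calls of Fos, Junb and Egr2 held when any single library was left out. Egr1 was not called without SCI replicate 2 or 3 or non-injured replicate 3 (0.69, 0.67 and 0.50), Ier2 not without SCI replicate 1 or 2 or non-injured replicate 1 or 2 (0.58 to 0.59), and Nr4a1 not without non-injured replicate 1 (0.70, adjusted p 0.0548). The number called was 4 without SCI replicate 2 or without non-injured replicate 1.

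With syngeneic MSC against SCI, Fos was the 1 gene of the 10 that was called, and it fell by 1.88 on the log2 scale (SE 0.23, adjusted p 0.0152), a level 3.68-fold lower. Among all genes 0.0303% were called lower and 0.00605% higher. All 10 estimates were below 0, and for 9 of the 10, all but Arc, the syngeneic libraries lay below the SCI libraries without overlap, as 11.5% of all genes did, while 12.2% of all genes lay above. Nr4a1 (-1.24, SE 0.21), Egr1 (-1.19, SE 0.20) and Ier2 (-1.10, SE 0.18) had an adjusted p of 0.0972 each, and Junb (-1.07, SE 0.20) one of 0.12. Fosb (-1.15, SE 0.42), Egr2 (-1.15, SE 0.48), Egr3 (-0.78, SE 0.53) and Dusp1 (-0.66, SE 0.17) were further from the threshold, and Arc was at -0.04 (SE 0.19). The median over the 10 was -1.13, against 0.0041 over all genes. The Fos call was lost without any 1 of SCI replicates 1, 2 and 3 (-1.98, -1.92 and -1.75) and without syngeneic replicate 1 or 2 (-1.93 and -1.68), with an adjusted p of up to 0.14, and the count was then 0. In those settings no gene of all those tested was called. Without syngeneic replicate 3, 6 of the 10 were called lower (Fos, Junb, Egr1, Nr4a1, Ier2 and Dusp1), with 804 of all genes lower and 62 higher. Within the syngeneic group that library was the highest for every monocyte, macrophage and fibroblast marker, and their part in this was not tested.

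With allogeneic MSC against SCI, Fos fell by 1.42 (SE 0.23, adjusted p 0.0301) and no other gene of the 10 was called, where 0.0182% of all genes were called lower. Without overlap, 6 of the 10 were lower than SCI (Fos, Junb, Egr1, Nr4a1, Ier2 and Dusp1), against 3.29% of all genes, and none was higher, against 4.2%. Egr1 was at -0.87 (SE 0.20, adjusted p 0.235), Fosb at -0.66 (SE 0.41), Nr4a1 at -0.64 (SE 0.21) and Dusp1 at -0.62 (SE 0.17). Ier2 (-0.44, SE 0.18), Junb (-0.36, SE 0.20), Egr3 (-0.29, SE 0.54), Egr2 (-0.03, SE 0.47) and Arc (0.05, SE 0.20) were nearer to 0, and the median was -0.53. The Fos call was lost without SCI replicate 1, 2 or 3 (-1.53, -1.46 and -1.26) and without allogeneic replicate 1 or 3 (-1.42 and -1.24). Without any 1 of the SCI libraries, no gene of all those tested was called. Both transplant comparisons use the same 3 SCI libraries, so their falls in Fos are not independent of each other.

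**Figure D2:**
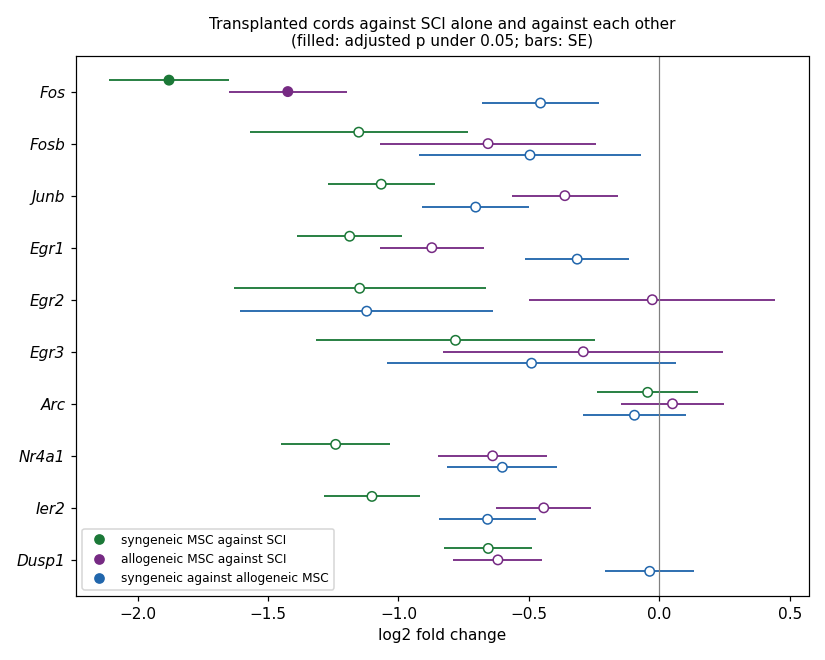
Log2 fold change (points) with its SE (bars) of each immediate early gene for syngeneic MSC against SCI, allogeneic MSC against SCI, and syngeneic against allogeneic MSC, with filled points where the adjusted p is under 0.05. Fos is the one gene with filled points, at -1.88 and -1.42, and no point of the direct comparison between the 2 kinds of MSC is filled.

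Compared directly, syngeneic against allogeneic MSC gave 0 of 10 genes called by edgeR and 0 by DESeq2. Of all genes, edgeR called 0.593% lower and 0.0182% higher, and DESeq2 called 334 of 16524 lower and 24 higher. At an unadjusted p under 0.05 by edgeR, 2381 of all genes passed in this comparison, among them Egr2, Junb, Nr4a1 and Ier2. All 10 estimates were below 0, with a median of -0.49, from -1.12 for Egr2 (SE 0.49, adjusted p 0.322) to -0.04 for Dusp1 (SE 0.17). Junb was at -0.70 (SE 0.20, adjusted p 0.203), Ier2 at -0.66 (SE 0.18, adjusted p 0.186), Nr4a1 at -0.60 (SE 0.21) and Fos at -0.46 (SE 0.22). Ier2 was the 1 gene of the 10 without overlap, where 7.03% of all genes were lower and 5.19% higher in this way. Junb was called without syngeneic replicate 3 (-1.01, adjusted p 0.0107), where 1135 of all genes were called lower. Ier2 and Nr4a1 were called without allogeneic replicate 1 (-0.84 and -0.83), where 118 of all genes were called lower.

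Set against non-injured cord, the calls in the transplanted groups were those of Junb and Egr2. Junb rose by 0.88 with syngeneic MSC (SE 0.21, adjusted p 0.0325), the 1 call among the 10, where 4.92% of all genes were called higher and 0.424% lower. With allogeneic MSC, Egr2 rose by 2.11 (SE 0.51, adjusted p 0.0113) and Junb by 1.58 (SE 0.21, adjusted p 0.000342), 2 of the 10, close to the 16.7% of all genes called higher, and none was called lower, against 8.17%. Without overlap, the same 2 genes were higher with allogeneic MSC, where 21.1% of all genes were, and Junb with syngeneic MSC, where 13.7% were. Fos was at -0.40 with syngeneic MSC (SE 0.22, adjusted p 0.366) and at 0.06 with allogeneic MSC (SE 0.22, adjusted p 0.875). Egr1 was at -0.48 (SE 0.20) and -0.17 (SE 0.20) in the same order, and Nr4a1 at -0.40 (SE 0.21) and 0.20 (SE 0.21). With syngeneic MSC the libraries of Fos, Arc and Ier2 were all below the non-injured libraries, as were those of 7.18% of all genes, and none of the 3 was called. A p that misses the threshold does not show that these levels equal those of non-injured cord. The syngeneic call of Junb was lost without syngeneic replicate 1 or 3 (0.91 and 0.59) and without non-injured replicate 1, 2 or 3 (0.90, 0.95 and 0.75), and without non-injured replicate 3 Egr1 was called lower (-0.70, adjusted p 0.0495). Both allogeneic calls held in every setting tried.

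**Figure D3:**
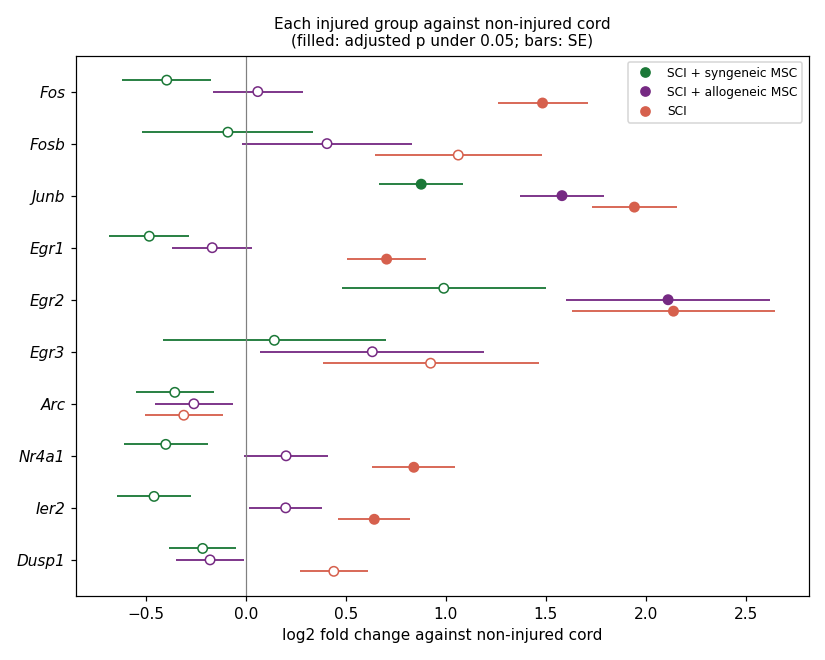
Log2 fold change against non-injured cord (points) with its SE (bars) of each immediate early gene for syngeneic MSC, allogeneic MSC and SCI, with filled points where the adjusted p is under 0.05. Junb is filled in all 3 injured groups (0.88, 1.58 and 1.94), Egr2 with allogeneic MSC and in SCI, and Fos, Egr1, Nr4a1 and Ier2 in SCI alone of these comparisons.

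The genes whose profile over the 12 libraries was most like that of Fos were found by Pearson correlation of log2 CPM among 13747 genes with a mean log2 CPM of at least 1. This is a description over libraries that share groups and that differ in depth, from 8705942 to 26151928 total counts. Egr1 came first (r 0.932), ahead of the clock gene Npas2 (0.927), Iffo2 (0.918), the Ras GTPase-activating gene Rasa2 (0.911), the Rac exchange factor gene Tiam2 (0.892) and Kank1 (0.889). Npas2 ranged over 5.23 to 8.48 CPM with syngeneic MSC, 7.11 to 8.76 CPM with allogeneic MSC, 17.2 to 19.3 CPM in SCI and 6.15 to 9.97 CPM in non-injured cord, so its SCI libraries also stood above all others. Of the other immediate early genes, Nr4a1 ranked 23rd in likeness to Fos (0.829), Dusp1 29th (0.808), Ier2 88th (0.744), Junb 323rd (0.646), Fosb 375th (0.631), Egr2 1896th (0.447) and Arc 6975th (0.016), and Egr3 was below the level minimum. Most like the mean of the 10 genes were Adamts15 (0.945), Btg2 (0.944), Creb3l1 (0.933), Frem2 (0.927), Iffo2 (0.924) and Fbrsl1 (0.924). Btg2, an antiproliferative gene that is itself induced early, rose by 1.07 in SCI against non-injured cord (SE 0.19).

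Among the partners of Fos and Junb in AP-1 and their relatives, 6 of 9 were called higher and none lower in SCI against non-injured cord, where 16.6% and 9.26% of all genes were, with a median log2 fold change of 1.69. Atf3, a stress-induced relative that marks injured neurons, rose by 4.23 (SE 0.56, and 5.10 without non-injured replicate 3) and Fosl2 by 1.74 (SE 0.23). Fosl1 had 137 counts summed over the SCI libraries, against 3 in the non-injured ones, which gives a ratio of 53.7 with a 95% counting interval of 18 to 264. It was at 1.90, 0.988 and 4.99 CPM in SCI and 0.0387, 0.0625 and 0.0513 CPM in non-injured cord, so SCI replicate 3 held most of it. Its fitted log2 fold change was 5.56 (SE 0.77), and 4.71 without that library. For Batf, an AP-1 factor of lymphocytes and myeloid cells, the sums were 39 counts in SCI, against 2 in non-injured cord (ratio 22.9, interval 5.94 to 196). Jun, named after its values were seen, rose by 0.81 (SE 0.16, adjusted p 0.0035), and its exons share 232 bases with Junos on the opposite strand, as those of Fosl1 share 1163 with Ccdc85b. With allogeneic MSC 6 of the 9 were also called higher than in non-injured cord (median 1.36), against 16.7% of all genes, and with syngeneic MSC 1 of the 9, Atf3, by 3.33 (median 0.77), against 4.92% of all genes. Against SCI, 0 of the 9 were called in either transplanted group, with medians of -0.51 with syngeneic and -0.02 with allogeneic MSC. At most 0.169% of all genes were called in either direction in these 2 comparisons.

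Of 34 other genes induced early by serum or activity, 33 were tested (Egr4, with 18 to 23 counts summed per group, was not), and 17 were called higher and none lower in SCI against non-injured cord (median 0.83), against 16.6% and 9.26% of all genes. Examples were Socs3, a cytokine feedback inhibitor (3.66, SE 0.41), Ptgs2, which makes prostaglandins (3.03, SE 0.39), the matrix protein gene Ccn1 (2.54, SE 0.35) and Myc (2.04, SE 0.21). With allogeneic MSC 16 of the 33 were called higher than in non-injured cord (median 0.76, with 16.7% of all genes called higher) and with syngeneic MSC 3 (Cebpd, Socs3 and Myc, median 0.37, with 4.92%). Exons of Cebpd share 562 bases with Spidr on the opposite strand. Against SCI 0 of the 33 were called in either transplanted group, where at most 0.169% of all genes were called in either direction. Medians were -0.47 and -0.08 with syngeneic and allogeneic MSC. Set against non-injured cord, the AP-1 relatives and these other early genes thus had 6 and 16 genes called higher with allogeneic MSC, beside 6 and 17 in SCI, and the difference in counts was not tested.

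Genes tied to neuronal activity were mixed. Of 12, Inhba (1.53, SE 0.48), Vgf (0.62, SE 0.15) and Rgs2 (0.46, SE 0.11) were called higher and 3 lower in SCI against non-injured cord (median 0.32), where 16.6% of all genes were called higher and 9.26% lower. The lower ones were Npas4, Nrn1 and Rheb, and of these Rheb, an activator of mTOR, fell by 0.33 (SE 0.11). Npas4, a neuron-restricted early gene named after its values were seen, was at 1.78, 1.21 and 1.76 CPM in SCI and 2.59, 3.75 and 2.67 CPM in non-injured cord, and fell by 0.92 (SE 0.31, adjusted p 0.048). Its call was lost in 8 of 14 settings, with leaving out any one SCI or non-injured library among them (-1.02 to -0.73). Vgf was not called without SCI replicate 3 (0.58), Inhba not without SCI replicate 2 or 3 or non-injured replicate 1 or 3 (1.21 to 1.54) or with no filter on low counts (1.47). The Rheb call was lost in 8 of 14 settings, namely without any 1 SCI library, without non-injured replicate 2 or 3 (-0.38 to -0.23), with library totals as scaling (-0.26), in the fit of 2 groups (-0.32) and without mitochondrial genes (-0.35). Summed neuron markers were 8021 to 11050 CPM with syngeneic MSC, 6723 to 7875 CPM with allogeneic MSC, 6266 to 7808 CPM in SCI and 11340 to 13030 CPM in non-injured cord, and 5 of the 8 markers were called lower and none higher in SCI against non-injured cord. Their part in the levels of Arc and Npas4 was not tested. Against SCI, 0 of the 12 activity genes were called in either transplanted group, where at most 0.169% of all genes were called in either direction.

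Of the other dual-specificity phosphatases and ERK feedback genes, 2 of 15 were called higher in SCI against non-injured cord, namely Dusp5 (1.60, SE 0.35) and Dusp6 (0.48, SE 0.14), both phosphatases of ERK (median 0.14). That count is near the 16.6% of all genes called higher. Dusp6 was not called without SCI replicate 1 or 3 or non-injured replicate 2 or 3 (0.40 to 0.51) or with no filter on low counts (0.43). Dusp2, a nuclear phosphatase of activated lymphocytes and myeloid cells, was at 0.656, 1.02 and 0.964 CPM with syngeneic MSC, against 2.85, 3.72 and 3.14 CPM with allogeneic MSC. It was at 0.858, 1.04 and 1.02 CPM in SCI and 1.04, 0.562 and 0.410 CPM in non-injured cord, so that the 3 allogeneic libraries stood above the 9 others. It was the 1 gene called between the 2 kinds of MSC in these lists. Among the regulators upstream of the early genes, 6 of 19 were called higher in SCI (median 0.17, again with 16.6% of all genes), among them the ERK-activated kinases Rps6ka1 (0.82, SE 0.10) and Rps6ka3 (0.71, SE 0.15), the Ets factor Elk3 (1.31, SE 0.25) and Mef2c (1.14, SE 0.16). Nab2, a corepressor of the Egr proteins that they themselves induce, rose by 1.14 (SE 0.23), the 1 of 2 Nab genes called. Of 10 heat shock genes, which respond to protein damage, 1 was called higher in SCI, the chaperone Hspa5 (0.48, SE 0.15), whose call was lost without any 1 SCI or non-injured library (0.40 to 0.54) or with no filter (0.43), and the list median was -0.13. With allogeneic MSC against non-injured cord, 2 of 12 activity genes were called higher and 2 lower, 2 of 15 phosphatases and feedback genes higher (Dusp2 by 2.21 and Dusp5 by 1.31), 6 of 19 upstream regulators higher, 1 of 2 Nab genes higher, and of the heat shock genes Hspb1 higher and Hsph1 lower, where 16.7% of all genes were called higher and 8.17% lower. With syngeneic MSC against non-injured cord the 1 call in these lists was that of Rps6ka1 (0.56), where 4.92% of all genes were called higher and 0.424% lower. Against SCI, 0 genes of these 4 lists were called in either transplanted group. Of all genes, 0.0303% were called lower and 0.00605% higher with syngeneic MSC, and 0.0182% lower and 0.169% higher with allogeneic MSC. With shares this low, a count of 0 does not set these lists apart from other genes.

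**Figure D4:**
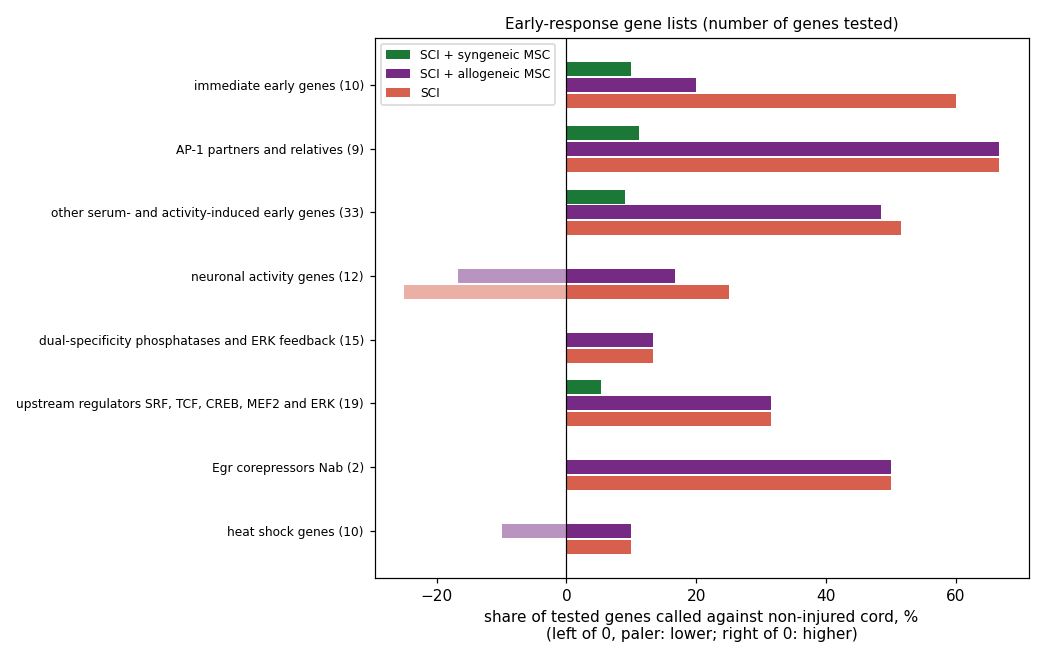
Share of the tested genes of each early-response list called higher (right of 0) or lower (left of 0, paler) against non-injured cord, in percent, for syngeneic MSC, allogeneic MSC and SCI; the number tested is in parentheses. The immediate early genes have 6 of 10 called in SCI and 2 of 10 with allogeneic MSC, while the AP-1 relatives have 6 of 9 in both.

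The labelled tissue held the markers of cord cells in every library, and none of the markers summed was at 0. Astrocyte markers summed to 7895 to 12010 CPM with syngeneic MSC, 10330 to 13750 CPM with allogeneic MSC, 11720 to 13290 CPM in SCI and 4682 to 6103 CPM in non-injured cord. Microglia markers summed to 621 to 1341 CPM, 1291 to 1725 CPM and 1280 to 1498 CPM in the 3 injured groups in the same order, against 242 to 349 CPM in non-injured cord, and neutrophil markers to 51.1 to 67.6 CPM, 70.1 to 98.7 CPM and 85.3 to 111 CPM, against 30.3 to 39.4 CPM. Fibroblast markers summed to 189 to 1002 CPM with syngeneic MSC, 441 to 1492 CPM with allogeneic MSC, 1057 to 1576 CPM in SCI and 101 to 219 CPM in non-injured cord. Endothelial markers, at 217 to 239 CPM, 252 to 276 CPM and 289 to 358 CPM in the 3 injured groups, against 265 to 375 CPM in non-injured cord, had no gene called in SCI against non-injured cord. Oligodendrocyte markers summed to 22600 to 41930 CPM, 24130 to 31460 CPM and 23630 to 32330 CPM in the 3 injured groups, against 32100 to 77590 CPM in non-injured cord. In SCI against non-injured cord, 5 of 6 astrocyte and 5 of 6 neutrophil markers were called higher, against 16.6% of all genes. All 6 microglia, all 6 fibroblast and all 6 monocyte and macrophage markers were called higher as well. Of the oligodendrocyte markers 4 of 6 were called lower, against 9.26% of all genes. Syngeneic libraries had lower neutrophil and endothelial sums than SCI without overlap, fibroblast sums lower without overlap as well, and neuron sums higher without overlap. Allogeneic libraries had lower endothelial sums than SCI without overlap. No marker of any list was called in either transplanted group against SCI, where at most 0.169% of all genes were called in either direction. The part of these cells in the levels of the 10 genes was not tested.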

How the data were processed

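Poly(A)-selected RNA of 12 mouse spinal cord libraries was sequenced with a stranded kit, per the labels' protocols. The values used are raw read counts per Ensembl gene, deposited by the authors in 1 table. Per the submitters' processing notes, which state no roles, the build was GRCm38 and the tools included the aligner STAR 2.5.1, the read counter featureCounts 1.5.1, Picard, StringTie 1.3.3, FastQC 0.11.5 and Trim Galore 0.4.1. Not given in the sources used here are the annotation release, the strand setting and the handling of multi-mapping reads. The 3 libraries of a group have no replicate numbers in the labels and were numbered in accession order. Gene coordinates, exon overlaps and exon lengths came from GENCODE M21, which held 45229 of the 46078 gene identifiers.

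The filter on low counts was filterByExpr of edgeR (minimum count 10, minimum total 15). A robust quasi-likelihood model (edgeR 4.0.16 in R 4.3.3) was fitted to the TMM-scaled counts of the 12 libraries together, with 4 group means, which leaves 8 residual degrees of freedom. Benjamini-Hochberg adjustment ran over all genes tested. Log2 CPM used a prior count of 2. The step was also run on simulated counts, and the outcome is not given here. Its changed genes were drawn from genes with higher counts than Egr3, so it says nothing on genes as low as Egr3. Alternatives were other scalings, no filter, DESeq2 1.42.0, limma-voom (limma 3.58.1), 2-group fits, no mitochondrial genes and leaving out each library. Counting intervals are exact at 95% and cover counting error only. The genes and lists, and the rule for named genes, were set with earlier results of these data known. The rule names the 10 members, in each other list up to 4 called genes per main comparison by smallest p, and the 6 genes most like Fos and most like the mean of the 10, and Jun, Npas4, Cebpd, Nrn1, Hspb1, Hsph1 and Ly6c2 were named outside it, after their values were seen. Exons of Junb, Dusp1, Jun, Fosl1, Cebpd, Nrn1, Dusp5, Elk3, Rps6ka1 and Nab2 overlap a gene on the opposite strand, which leaves their counts uncertain. Promoters were searched over 250 bases before the RefSeq start, with Egr1 left out of the search.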

Additional observations from a re-analysis of the deposited data

Results flagged for a closer look

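Dusp2 differed between the 2 kinds of MSC by the test of that difference itself, at -1.87 on the log2 scale for syngeneic minus allogeneic MSC (SE 0.31, adjusted p 0.0223 by edgeR). All 3 allogeneic libraries were above all 3 syngeneic ones, at 2.85 to 3.72 CPM against 0.656 to 1.02 CPM with syngeneic MSC. Against SCI it was not called with syngeneic MSC (-0.15, SE 0.33, adjusted p 0.883) or with allogeneic MSC (1.71, SE 0.31, adjusted p 0.0742). The call was lost in 5 of 14 settings, among them those without syngeneic replicate 1 or 2 (-1.69 and -2.004) and without allogeneic replicate 2 or 3 (-1.77 and -1.91). Of the 6 monocyte and macrophage markers 1 was called between the 2 kinds of MSC, where 0.593% of all genes were called lower. That marker was Ly6c2, at -3.70 for syngeneic minus allogeneic MSC (SE 0.49, adjusted p 0.00657 by edgeR). It was at 0.306, 0.286 and 0.642 CPM with syngeneic MSC, 4.02, 8.80 and 3.09 CPM with allogeneic MSC, 0.980, 0.604 and 0.907 CPM in SCI and 0.193, 0.375 and 0.103 CPM in non-injured cord, so that for Ly6c2, as for Dusp2, the 3 allogeneic libraries stood above the 9 others. Reads of Ly6c2 may be shared with its near-identical neighbour Ly6c1. The sum of the 6 markers overlapped, at 267 to 1373 CPM with syngeneic MSC and 876 to 1784 CPM with allogeneic MSC, and the part of these cells in the Dusp2 levels was not tested. The marker lists held none for lymphocytes, whose part was not tested either.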

How the results depend on the processing

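No paired analysis was possible because the labels give no replicate numbers that groups share. The number of immediate early genes called higher or lower in SCI against non-injured cord was 6, and 4 to 7 over all settings. Of all genes, 1876 to 3054 were called higher over these settings. With syngeneic MSC against SCI the number of immediate early genes was 1. It was 5 with no filter on low counts, 5 with DESeq2 and 0 to 6 when single libraries were left out. Of all genes, 5 were called lower in the main fit, 15 with no filter and 98 with DESeq2, and none where that number was 0. With allogeneic MSC against SCI the number of immediate early genes was 1, and 2 with DESeq2 and 0 to 1 without single libraries. DESeq2 called 8 of all genes lower there, beside 3 in the main fit. In fits of only the 2 groups compared, the 1 call was Nr4a1 with syngeneic and Egr1 with allogeneic MSC, and Fos was not called (adjusted p 0.0598 and 0.0813). Between the 2 kinds of MSC the number of immediate early genes called was 0, and 0 to 2 without single libraries. With syngeneic MSC against non-injured cord it was 1, and 0 with limma-voom, 0 with 2 groups and 0 to 1 without single libraries, and with allogeneic MSC it was 2 in every setting. Scaled by library totals alone, the calls over all genes in SCI against non-injured cord were 3054 higher and 1089 lower, beside 2736 and 1530 with TMM. Directions turned only for genes that were not called. With limma-voom Arc was at -0.045 with allogeneic MSC against SCI and at 0.014 with syngeneic against allogeneic MSC. Without single libraries, Arc ranged over -0.15 to 0.068 with syngeneic MSC against SCI, and Egr2 over -0.19 to 0.22, Egr3 over -0.84 to 0.11 and Arc over -0.091 to 0.30 with allogeneic MSC against SCI. With syngeneic against allogeneic MSC, Fosb ranged over -0.76 to 0.20, Egr3 over -0.92 to 0.059, Arc over -0.37 to 0.046 and Dusp1 over -0.18 to 0.061. Against non-injured cord, Fosb ranged over -0.34 to 0.19 and Egr3 over -0.33 to 0.55 with syngeneic MSC, and Fos over -0.14 to 0.25, Fosb over -0.32 to 0.69 and Dusp1 over -0.28 to 0.017 with allogeneic MSC. The cause of these changes was not tested. Egr3 had 5 to 34 counts per library and Fosb 15 to 102, which sets the counting precision of their values.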
